A study of Mus musculus with 6 samples.

Results

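Wnt signalling was described here in RAW264.7, a macrophage-like cell line from mouse, through the genes for Wnt ligands, the proteins that make and release them, their secreted inhibitors, their receptors, the Dishevelled adaptors and the TCF/LEF transcription factors. The 61 members are the protein-coding genes of the deposited table of 39089 genes whose symbols belong to these families. All groups were wild type per the labels and all were kept with 100 ng/mL of the bacterial endotoxin lipopolysaccharide (LPS) over 48 h. Cells of the LPS with LIPUS group (n = 3) also received ultrasound pulses of low intensity (LIPUS), in 2 sessions of 25 min with an interval of 24 h, at an intensity of 45 mW/cm2. The LPS group (n = 3) had LPS alone. No group without LPS was analysed here, so the response of these genes to LPS was not measured. The labels number the replicates but do not say whether they were separate cultures, so p-values measure the spread between these libraries, which may be technical.

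Wnt proteins are secreted lipid-modified signals. Porcupine attaches the lipid and Wntless carries the protein to the cell surface, where it binds a Frizzled receptor together with the co-receptor LRP5 or LRP6. Dishevelled then disables the complex that degrades beta-catenin, and beta-catenin enters the nucleus and acts on genes through TCF/LEF factors. The comparison with ultrasound addresses whether transcripts of this pathway differ with LIPUS, and Wnt2b is the one ligand that the title of the series names.

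Libraries held 14171061 to 14632288 counts with LIPUS and 14984236 to 15956693 counts with LPS alone, of which 8621 to 9356 and 9271 to 9596 fell on the 61 genes. The label as macrophage cells fits the markers: all 8 macrophage markers examined were expressed. Their summed level was 10514 to 12115 CPM (counts relative to the scaled library size) with LIPUS and 11213 to 11684 CPM with LPS alone. Lyz2 held most of this sum. The log2 fold change was positive in 3 of the 8 and negative in 5. Groups did not overlap in 1, Ptprc, with 2662, 2562 and 2777 counts with LIPUS and 2691, 2533 and 2450 with LPS alone. In CPM every LIPUS library was the higher for Ptprc (log2 fold change 0.15, adjusted p = 0.842, edgeR), as in 5.09% of all genes tested. Of the 5 epithelial markers 4 had 0 counts, and the summed levels of 5 B cell and 4 endothelial markers stayed below 1 CPM in every library. Of 7 T cell markers, Cd4, Cd8a and Cd3g had 0 counts, and Lck accounted for nearly all of the summed 4.56 to 5.82 CPM with LIPUS and 5.85 to 6.35 CPM with LPS alone. Fibroblast markers summed to 1.63 to 2.97 CPM with LIPUS and 1.91 to 2.67 CPM with LPS alone. Among them Col3a1 had 0 counts. Col1a1 had 9, 3 and 7 counts with LIPUS and 11, 25 and 16 with LPS alone, without overlap (adjusted p = 0.890, edgeR). Col1a1 passed the filter on low counts through the LPS libraries, where it was higher, so its non-overlap is given as a description. Groups did not overlap in 9.72% of all genes tested. Dcn, the other fibroblast marker expressed, had 15, 29 and 33 counts with LIPUS and 18, 14 and 22 with LPS alone, a log2 fold change of 0.60 in the other direction (adjusted p = 0.999, edgeR). Whether cells of these other types were present, or had any part in the Wnt values, was not tested.

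Most of the Wnt genes were off or nearly off. A gene is called silent if it had 0 counts in all 6 libraries, expressed if it passed the filter on low counts (about 10 reads in at least 3 libraries), and at trace counts if it had reads but did not pass. Of the 61 genes, 22 were silent, 23 were at trace counts and 16 (26.2%) were expressed. Of all 21770 protein-coding genes, 51.9% were expressed, 17.2% were at trace counts and 30.9% were silent. A count of 0 allows up to 3 reads, which corresponds to 0.204 to 0.210 CPM per library with LIPUS and 0.190 to 0.202 CPM with LPS alone, for counting error only.

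**Figure D1:**
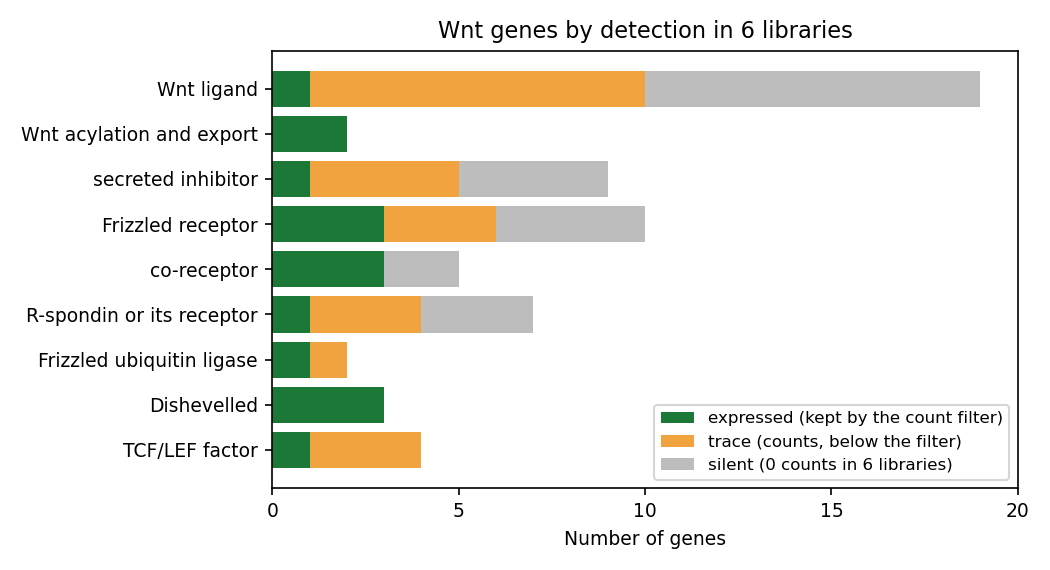
Number of genes (x axis) in each role of the Wnt pathway (y axis), divided into expressed genes, genes at trace counts and silent genes over the 6 libraries. Of the 19 ligand genes 1 was expressed, whereas all 3 Dishevelled genes and both genes of Wnt acylation and export were.

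Among the 19 ligands, Wnt6 was expressed, 9 were at trace counts (Wnt1, Wnt2b, Wnt3, Wnt4, Wnt7a, Wnt9a, Wnt10a, Wnt10b and Wnt11) and 9 were silent (Wnt2, Wnt3a, Wnt5a, Wnt5b, Wnt7b, Wnt8a, Wnt8b, Wnt9b and Wnt16). The silent ligands include Wnt3a, the ligand commonly used to activate beta-catenin signalling, and Wnt5a, known for beta-catenin-independent signalling and described in activated human macrophages. Among the 9 secreted inhibitors, Notum was expressed, Dkk4, Sfrp1, Sfrp2 and Sfrp5 were at trace counts, and Dkk1, Dkk2, Dkk3 and Sfrp4 were silent. Of the 10 Frizzled receptors, Fzd5, Fzd7 and Fzd2 were expressed, Fzd4, Fzd8 and Fzd9 were at trace counts, and Fzd1, Fzd3, Fzd6 and Fzd10 were silent.

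The co-receptors Lrp5, Lrp6 and Ryk were expressed and the receptor tyrosine kinases Ror1 and Ror2 were silent. The R-spondins, which raise Frizzled levels at the cell surface, were silent (Rspo2 and Rspo3) or at trace counts (Rspo1 and Rspo4), and of their receptors Lgr4 was expressed, Lgr6 was at trace counts and Lgr5 was silent. Of the ubiquitin ligases that remove Frizzled, Znrf3 was expressed and Rnf43 was at trace counts. Dvl1, Dvl2 and Dvl3 were all expressed. Of the TCF/LEF factors, Tcf7l2 was expressed and Tcf7, Tcf7l1 and Lef1 were at trace counts.

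Start-site sequences of 4 ligands are shown because they cover the 3 classes and, among silent ligands, a CpG-poor and a CpG-rich example. They are RefSeq sequences of build GRCm38.p6, 250 bases before to 50 after the start of transcription, with each CpG in capitals. Wnt6 is the expressed ligand (chr1:74771642-74771941, plus strand, 31 CpG), Wnt2b is at trace counts (chr3:104961660-104961959, minus strand, 43 CpG), and Wnt3a (chr11:59290702-59291001, minus strand, 45 CpG) and Wnt8b (chr19:44493222-44493521, plus strand, 6 CpG) are silent. The RefSeq start of Wnt6 lies 17550 bases inside the deposited span of the gene.
Wnt6: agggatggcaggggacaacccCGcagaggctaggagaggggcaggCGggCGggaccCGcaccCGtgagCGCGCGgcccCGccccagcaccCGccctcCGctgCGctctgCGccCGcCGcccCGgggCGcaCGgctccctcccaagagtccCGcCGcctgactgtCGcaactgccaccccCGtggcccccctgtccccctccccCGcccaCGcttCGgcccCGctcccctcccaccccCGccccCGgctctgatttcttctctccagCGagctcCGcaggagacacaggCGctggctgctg
Wnt2b: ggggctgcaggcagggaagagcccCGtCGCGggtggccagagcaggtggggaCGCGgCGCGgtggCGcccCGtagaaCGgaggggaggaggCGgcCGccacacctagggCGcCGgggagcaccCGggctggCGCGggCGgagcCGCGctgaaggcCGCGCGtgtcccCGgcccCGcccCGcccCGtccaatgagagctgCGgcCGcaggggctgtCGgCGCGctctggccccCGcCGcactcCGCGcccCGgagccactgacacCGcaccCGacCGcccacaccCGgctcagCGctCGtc
Wnt3a: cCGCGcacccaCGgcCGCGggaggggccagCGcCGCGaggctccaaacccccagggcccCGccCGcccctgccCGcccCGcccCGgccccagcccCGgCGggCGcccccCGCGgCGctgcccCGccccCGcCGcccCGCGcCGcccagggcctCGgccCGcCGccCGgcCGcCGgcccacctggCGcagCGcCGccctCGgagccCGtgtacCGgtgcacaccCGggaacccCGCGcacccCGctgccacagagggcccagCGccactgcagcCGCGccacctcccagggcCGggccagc
Wnt8b: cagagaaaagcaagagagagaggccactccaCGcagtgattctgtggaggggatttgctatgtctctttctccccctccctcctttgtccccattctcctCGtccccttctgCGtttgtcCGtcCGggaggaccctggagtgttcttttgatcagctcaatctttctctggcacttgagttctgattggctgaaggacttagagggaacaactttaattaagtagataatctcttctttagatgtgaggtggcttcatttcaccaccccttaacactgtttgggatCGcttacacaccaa

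Such a sequence was found for 41 of the 61 genes, and in 25 of these the RefSeq start was that of the deposited gene. The measure used was the number of CpG observed over that expected from the C and G content. Its median was 0.766 in 10 expressed Wnt genes, 0.810 in 19 at trace counts and 0.754 in 12 silent ones. Over all 17491 protein-coding genes with such a sequence, the median was 0.775 in expressed genes, 0.400 at trace counts and 0.196 in silent genes. The silent Wnt genes ranged from 0.327 for Dkk1 to 1.06 for Wnt5b, so CpG-rich start sites occurred in every class. This is a description of gene sequence and of which genes are on, with no test.

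**Figure D2:**
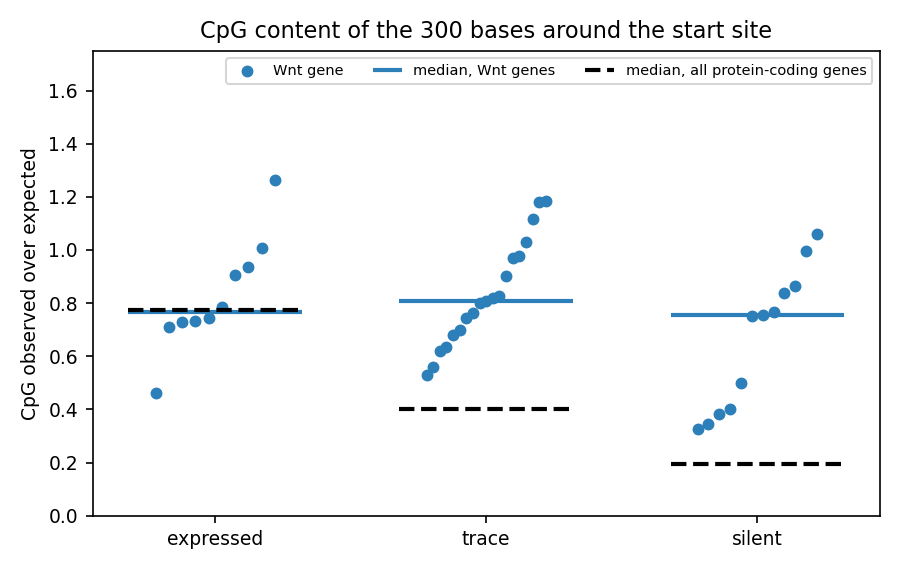
CpG observed over expected (y axis) in the 300 bases around the start site of 41 Wnt genes, by class (x axis). Each point is a gene, solid lines are medians of the Wnt genes and dashed lines medians of all protein-coding genes of the class. The median of silent Wnt genes was 0.754, against 0.196 for silent protein-coding genes in general.

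The TCF/LEF motif, searched as CTTTGAA and CTTTGAT on both strands, was present in the start-site sequences of Dkk1 and Wnt11, which is 2 of 41 (4.88%). The share over all 17491 protein-coding genes was 7.83%. Some pairs of ligand genes are neighbours in the deposited mm10 coordinates. Wnt6 (chromosome 1, 74754342 to 74785322, plus strand) had 1333 counts over the 6 libraries, whereas Wnt10a, which begins 6696 bases after its end on the same strand, had 2. Wnt9a had 19 counts and its divergent neighbour Wnt3a 0, across a gap of 16097 bases. Wnt10b had 20 and Wnt1, 11650 bases away, 5. The deposited spans of Wnt9b and Wnt3 overlap by 1098 bases on opposite strands, and these genes had 0 counts and 1 count. The RefSeq start used for Wnt9b lies 25451 bases inside its deposited span, outside this overlap. Whether reads were counted by strand is not given in the sources used here, so a read in that overlap could not be assigned to a strand.

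Levels of the 16 expressed genes are given in TPM, the authors' measure of transcript abundance, which corrects for gene length and library size. Dvl1 stood highest with a mean of 102.7 ± 5.48 TPM over all libraries (SD, n = 6), above 88.9% of the 11291 expressed protein-coding genes, whose median was 16.3 TPM. Dvl2 followed at 43.95 ± 4.90 TPM, Lrp5 at 32.4 ± 2.49 TPM and Ryk at 21.2 ± 0.49 TPM, and none of these ranges overlapped with the next gene's. Dvl3 (17.5 ± 2.20 TPM), Lrp6 (16.5 ± 1.53 TPM) and Wls (16.1 ± 1.19 TPM) had overlapping ranges and could not be ordered. Wnt6 (13.6 ± 0.63 TPM) came next, below Lrp6 and Wls without overlap, but its range (12.7 to 14.3 TPM) overlapped with that of Dvl3 (13.4 to 19.5 TPM). Fzd5 (10.8 ± 0.88 TPM) followed without overlap. Below them lay Fzd7 (6.33 ± 0.66 TPM) and Notum (5.02 ± 0.73 TPM), which overlapped, and Porcn (3.54 ± 0.35 TPM) and Znrf3 (3.32 ± 0.34 TPM), which overlapped as well. Lgr4 (1.63 ± 0.22 TPM), Tcf7l2 (0.96 ± 0.18 TPM) and Fzd2 (0.40 ± 0.11 TPM) were the lowest, each separate from the next.

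**Figure D3:**
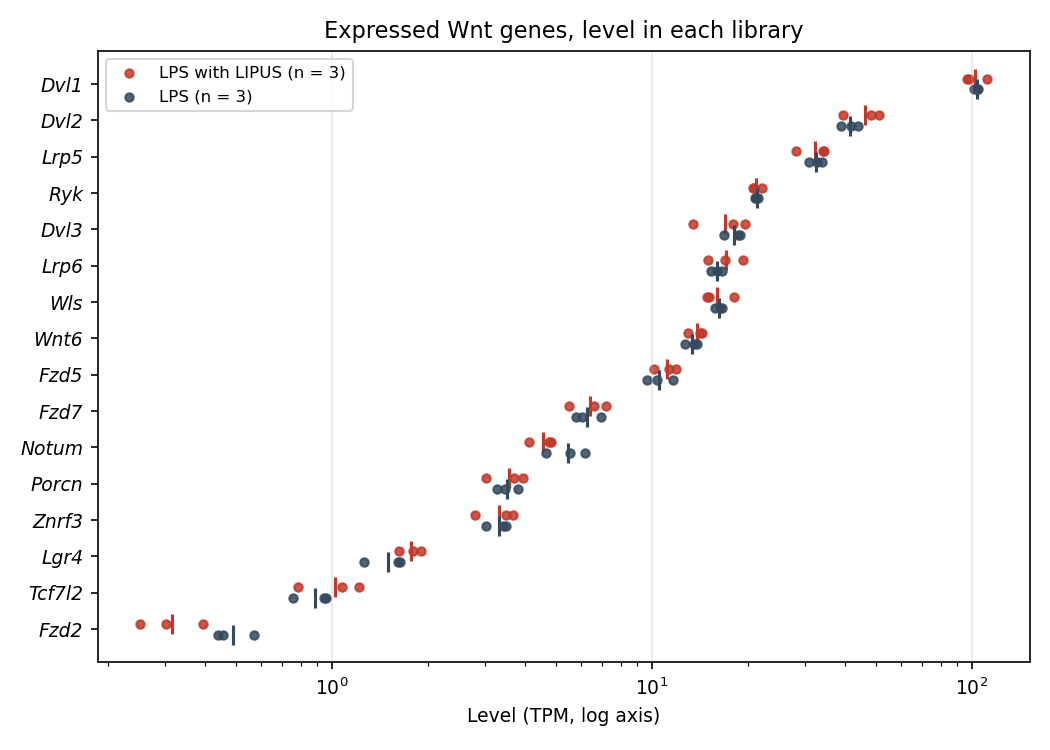
Level in TPM (x axis, log scale) of the 16 expressed Wnt genes (y axis, ordered by mean). Points are libraries and vertical ticks group means, with LPS with LIPUS above LPS for each gene. Levels span Dvl1 at 102.7 TPM to Fzd2 at 0.40 TPM, and the groups overlap for every gene but Fzd2.

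By edgeR's quasi-likelihood test no Wnt gene passed for a difference with ultrasound: 0 of the 16 expressed genes passed an adjusted p of 0.05, 0 had an unadjusted p below 0.05, and DESeq2 called 0 as well. Of all 12571 genes tested 0% passed, and 4.61% had an unadjusted p below 0.05. On the log2 scale the fold change, always given as LPS with LIPUS over LPS and with its SE after the ± sign, was positive in 7 of the 16 genes and negative in 9, with a median of -0.01, against a median of -0.0052 over all genes tested. The groups did not overlap in 1 of the 16 genes, Fzd2, whereas this was the case in 9.72% of all genes tested (LIPUS higher in 5.09% and lower in 4.63%). In such bulk samples, fewer cells with a transcript and less of it per cell cannot be told apart.

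Most of the estimates were tight. In 12 of the 16 genes (75%) the 95% interval excluded changes of 1.5-fold or more in either direction, as it did in 80.1% of all genes tested. In 15 it excluded changes of 2-fold or more. The 4 genes whose interval reached past 1.5-fold were Fzd2, Notum, Tcf7l2 and Lgr4, and Fzd2's also reached past 2-fold.

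**Figure D4:**
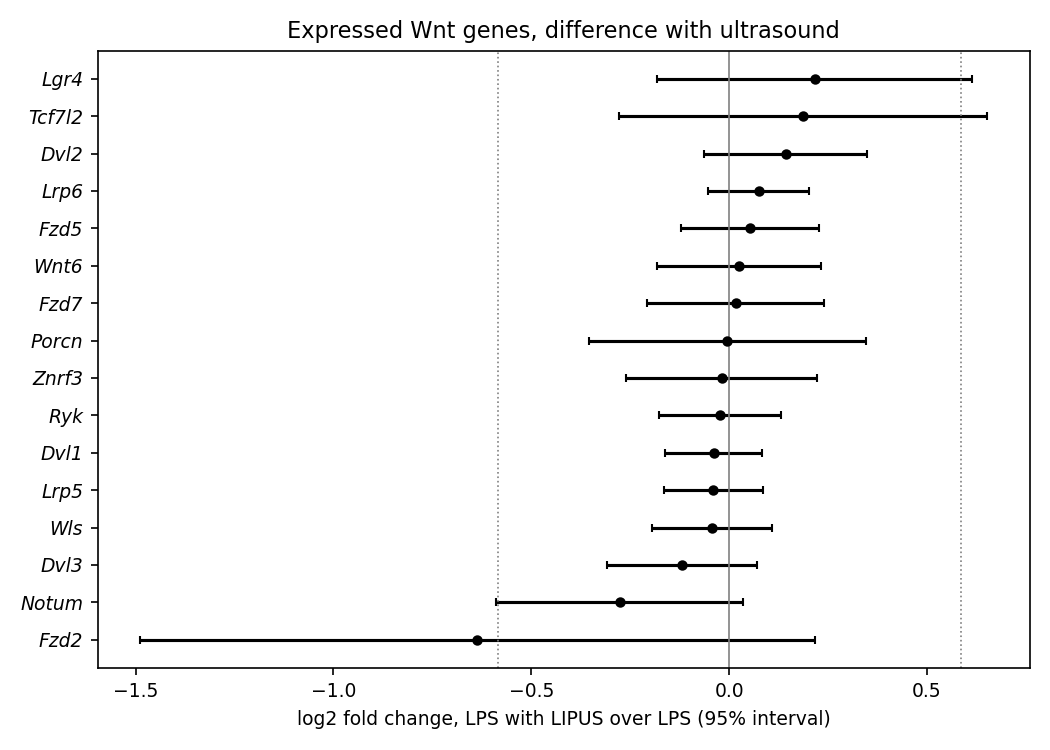
Log2 fold change of the 16 expressed Wnt genes, LPS with LIPUS over LPS (x axis), with 95% intervals from edgeR's quasi-likelihood fit (n = 3 each). Dotted lines mark 1.5-fold, and every interval includes 0, from Lgr4 at 0.22 to Fzd2 at -0.64.

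The expressed ligand and both export genes had groups that overlapped in CPM, the scale on which overlap is judged throughout. Wnt6 had 223, 214 and 214 counts with LIPUS and 224, 231 and 227 counts with LPS alone. That is 13.8 ± 0.74 TPM with LIPUS and 13.4 ± 0.56 TPM with LPS alone (SD, n = 3 each), and the log2 fold change was 0.03 ± 0.10 (95% interval -0.18 to 0.23, adjusted p = 0.999 by edgeR). Wnt6 made up 94.9 to 96.2% of the summed TPM of all ligand genes in every library. Wls, which encodes the carrier of Wnt proteins, had 596, 632 and 688 counts with LIPUS and 707, 715 and 684 counts with LPS alone, with a log2 fold change of -0.04 ± 0.07. Porcn, the acyltransferase gene on chromosome X, had 80, 64 and 71 counts with LIPUS and 78, 83 and 69 counts with LPS alone, and its log2 fold change was 0.00 ± 0.17.

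Wnt2b (chromosome 3, 104944805 to 104961709, minus strand), the ligand named in the series title, was at trace counts. It had 9, 8 and 11 reads with LIPUS and 4, 6 and 4 reads with LPS alone. The groups did not overlap, and every library lay below 1 CPM (0.561 to 0.76 CPM with LIPUS and 0.254 to 0.381 CPM with LPS alone). The summed counts, 28 with LIPUS and 14 with LPS alone, gave a ratio of 2.13 relative to library size, with an exact 95% interval of 1.09 to 4.38 that covers counting error only. The exact two-sided permutation test over the 6 libraries gave p = 0.1, the smallest that 3 against 3 allows. Of the 2927 genes below the filter with at least 10 counts, 10.7% had groups that did not overlap, and LIPUS was the higher in 7.17%. In TPM, Wnt2b averaged 0.38 ± 0.08 with LIPUS and 0.17 ± 0.04 with LPS alone (SD, n = 3 each), which was 2.61% and 1.24% of the summed ligand TPM. The only transcript deposited for it has the same counts. Tested without the filter on low counts, it had an adjusted p of 0.899 by edgeR.

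The other ligands at trace counts with at least 10 reads were Wnt9a and Wnt10b. Wnt9a had 3, 0 and 3 reads with LIPUS and 4, 4 and 5 with LPS alone, so these groups did not overlap either (exact permutation p = 0.1, ratio of summed counts 0.492 with a counting interval of 0.153 to 1.39). Wnt10b had 2, 4 and 1 reads with LIPUS and 5, 5 and 3 with LPS alone, and its groups overlapped (exact permutation p = 0.2, ratio 0.574, 0.194 to 1.55). Of the 23 Wnt genes at trace counts, 6 had 10 reads or more over the libraries and 17 had 1 to 7. Groups did not overlap in 2 of the 23, Wnt2b and Wnt9a, against 6.49% of all 8209 genes below the filter that had counts (LIPUS higher in 4.5%).

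**Figure D5:**
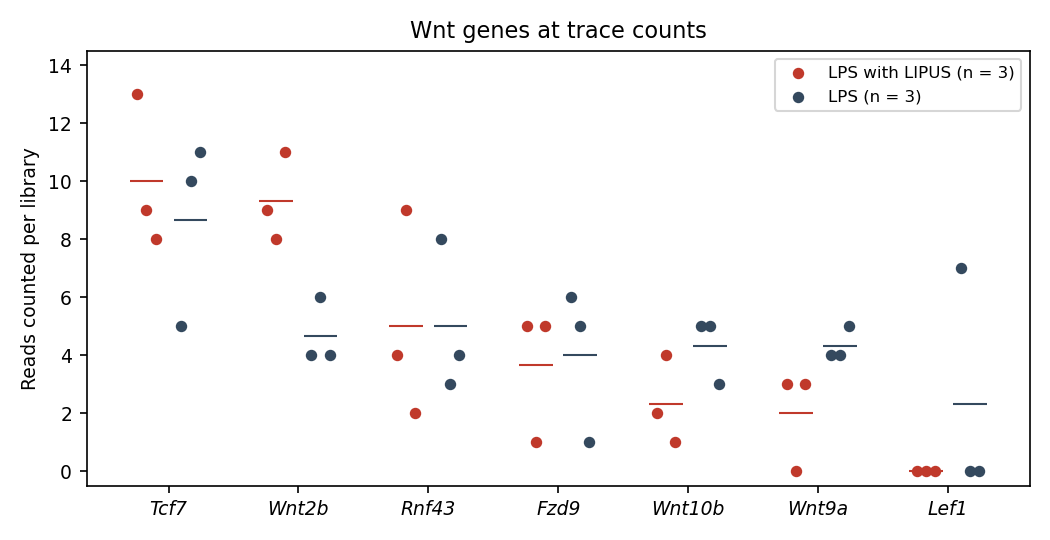
Reads counted per library (y axis) for the 6 Wnt genes at trace counts with at least 10 reads in all, and for Lef1 (x axis). Points are libraries and horizontal lines group means, with LPS with LIPUS left of LPS. Wnt2b had 8 to 11 reads with LIPUS and 4 to 6 with LPS alone, and the 7 reads of Lef1 all came from LPS library 1.

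Notum, which encodes an enzyme that removes the lipid from Wnt proteins, was the one secreted inhibitor expressed. It had 94, 115 and 103 counts with LIPUS and 157, 136 and 111 counts with LPS alone, and LIPUS library 2 exceeded LPS library 3. The means were 7.19 ± 0.84 CPM with LIPUS and 8.70 ± 1.26 CPM with LPS alone (SD, n = 3 each), and the log2 fold change, -0.28 ± 0.15, had a 95% interval of -0.59 to 0.04 (adjusted p = 0.999 by edgeR). Its unadjusted p of 0.0789 was the smallest of the 16 genes. Without LPS library 1 the log2 fold change was -0.17. The 4 secreted inhibitors at trace counts had 1 to 6 reads each over all libraries.

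Fzd5 and Fzd7 provided nearly all Frizzled transcripts. Fzd5 had 570, 512 and 514 counts with LIPUS and 556, 501 and 581 counts with LPS alone, and its log2 fold change was 0.05 ± 0.08 (95% interval -0.12 to 0.23). It held 61.2 ± 2.38% of the summed Frizzled TPM with LIPUS and 59.9 ± 4.03% with LPS alone (SD, n = 3 each). Fzd7 had 220, 193 and 227 counts with LIPUS and 215, 249 and 211 counts with LPS alone (log2 fold change 0.02 ± 0.11), or 35.3 ± 1.73% and 35.5 ± 3.64% of the summed TPM. For both receptors the libraries of the 2 groups were interleaved.

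Fzd2 was close to the limit of the filter, with 10, 8 and 6 counts with LIPUS and 16, 12 and 12 counts with LPS alone. It passed the filter through the LPS libraries, where it was higher, so its non-overlap among the genes tested is given as a description. Every LIPUS library was below every LPS library, and the log2 fold change was -0.64 ± 0.41 (95% interval -1.49 to 0.22, adjusted p = 0.999 by edgeR). Fzd9 had 5, 1 and 5 reads with LIPUS and 6, 5 and 1 with LPS alone, and Fzd4 and Fzd8 had 5 and 7 reads over all libraries.

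Of the co-receptor genes, the 3 expressed ones had groups that overlapped in CPM. Lrp5 had 1234, 1063 and 1177 counts with LIPUS and 1243, 1327 and 1236 counts with LPS alone, with a log2 fold change of -0.04 ± 0.06 (95% interval -0.16 to 0.08). Lrp6 had 1106, 1020 and 1184 counts with LIPUS and 1108, 1158 and 1085 counts with LPS alone (0.07 ± 0.06, interval -0.05 to 0.20). The level of Lrp5 was 1.79 to 2.01 times that of Lrp6 in TPM with LIPUS and 2.02 to 2.07 times with LPS alone. The highest LIPUS ratio (2.013) lay next to the lowest LPS ratio (2.024), and a difference in this ratio was not tested. Ryk, an atypical receptor kinase gene, had 474, 491 and 473 counts with LIPUS and 536, 514 and 509 counts with LPS alone (-0.02 ± 0.07). None of these passed the test (adjusted p = 0.999 each, edgeR).

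The genes that set Frizzled turnover were low. Lgr4, an R-spondin receptor gene, had 57, 66 and 63 counts with LIPUS and 63, 62 and 46 counts with LPS alone, with a log2 fold change of 0.22 ± 0.19. Znrf3 had 186, 156 and 186 counts with LIPUS and 180, 196 and 194 counts with LPS alone (-0.02 ± 0.12). Rnf43 had 4, 9 and 2 reads with LIPUS and 8, 3 and 4 with LPS alone, so the groups overlapped in all 3 genes.

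Of the 16 expressed genes, Dvl1 and Dvl2 had the highest levels in TPM. Dvl1 had 2739, 2467 and 2275 counts with LIPUS and 2778, 2747 and 2664 counts with LPS alone, with a log2 fold change of -0.04 ± 0.06 (95% interval -0.16 to 0.08). Dvl2 had 1000, 1103 and 773 counts with LIPUS and 1014, 864 and 900 counts with LPS alone (0.14 ± 0.10). Dvl3 had 667, 481 and 581 counts with LIPUS and 641, 693 and 665 counts with LPS alone (-0.12 ± 0.09). LIPUS library 2 was the highest of all for Dvl2 and the lowest of all for Dvl3. Without that library the log2 fold change was 0.02 for Dvl2 and -0.01 for Dvl3. Dvl1 held 61.7 ± 1.65% of the summed Dishevelled TPM with LIPUS and 63.4 ± 0.90% with LPS alone (SD, n = 3 each).

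The TCF/LEF factors were scarce, with a summed level of 0.90 to 1.47 TPM with LIPUS and 1.01 to 1.10 TPM with LPS alone. Tcf7l2, which encodes TCF4, had 55, 37 and 46 counts with LIPUS and 38, 46 and 45 counts with LPS alone, a log2 fold change of 0.19 ± 0.22 (95% interval -0.28 to 0.65). Tcf7, which encodes TCF1, had 13, 9 and 8 reads with LIPUS and 5, 10 and 11 with LPS alone (ratio of summed counts 1.23, counting interval 0.704 to 2.17). Tcf7l1 had 2 reads, both in LIPUS library 1. Lef1 had 0 reads in every LIPUS library and 7, 0 and 0 in the LPS libraries (exact permutation p = 1). Tcf7 and Lef1 are also lymphocyte genes. The T cell marker Lck had 74, 82 and 62 counts with LIPUS and 95, 100 and 87 counts with LPS alone. In CPM every LIPUS library was the lower for Lck (log2 fold change -0.28, adjusted p = 0.999 by edgeR), as in 4.63% of all genes tested. Any link of Lck to the values of Tcf7 and Lef1 was not tested. Cd3d had 0, 1 and 2 reads and Zap70 1, 0 and 2 reads with LIPUS, and both had 0 in every LPS library. In LPS library 1 the T cell markers Cd3e and Cd3d had 2 reads and 0, and Cd4, Cd8a and Cd3g had 0. Over the whole table, Lef1, Ak9 (46 reads, LPS library 1) and Gm26650 (7 reads, LIPUS library 2) were the only genes with 7 reads or more in 1 library and 0 in the other 5. The limit of 7 reads was taken from Lef1 itself, so Lef1 is among these genes by construction. Ak9 and Gm26650 were named after their values were seen.

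In the transcript table the 61 genes had 215 transcripts, of which 57 had 0 counts and 100, from the 16 expressed genes, could be tested. A read can count for several transcripts there, so transcripts of a gene are not independent, and 54 of the 100 belong to Tcf7l2. None passed the test (smallest adjusted p = 0.938, edgeR) and 0 had an unadjusted p below 0.05, against 0% and 5.38% of all 52257 transcripts tested. The log2 fold changes were 0.09 to 0.39 over the Tcf7l2 transcripts, -0.31 to -0.22 over 5 of Notum, -0.04 to 0.03 over 4 of Wnt6 and -0.06 to 0.17 over 9 of Porcn.

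As changed, the authors' deposited table gives 351 genes (0.898% of all), and 2 of the 61 Wnt genes are among them. The authors' deposited table gives Wnt2b a log2 fold change of 1.07 with p = 0.0227, and Lef1 -4.25 with p = 0.0292, both unadjusted. All 7 reads of Lef1 came from LPS library 1, so its fold change rests on that library. Without the filter on low counts, edgeR gave unadjusted p = 0.0848 for Wnt2b and 0.0282 for Lef1 (adjusted p = 0.899 each). Wnt9a, the other ligand whose groups did not overlap, has -0.98 with p = 0.176 in the authors' deposited table and is not listed.

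Genes of the pathway outside these families were compared as 5 lists, and 0 genes in any of them passed the test over all genes by edgeR. Of 17 genes of the destruction complex and beta-catenin, 16 were tested, 10 positive and 6 negative on the log2 scale, and the median was 0.03. Apc, the scaffold of the complex, had 55.0, 49.4 and 59.2 CPM with LIPUS and 47.5, 43.6 and 47.5 CPM with LPS alone. The groups did not overlap, with a log2 fold change of 0.24 ± 0.07 (adjusted p = 0.794). This was so for 2 of the 16 genes, Apc and Apc2, and for 9.72% of all genes tested. Apc2 was near the limit of the filter, and with 1 CPM required in 3 libraries it was not tested. Usp34, a deubiquitinase gene, was at 0.18 ± 0.07, Btrc, the ubiquitin ligase gene, at -0.12 ± 0.08 and Apc2 at 0.38 ± 0.38. Ctnnb1 (beta-catenin) and Axin1 were at 0.02 ± 0.06 and -0.06 ± 0.07, and Axin2 had 1 read.

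Further secreted modulators and co-receptors were mostly silent: of 21 genes, 12 had 0 counts, among them Wif1, Sost and Frzb, and 3 could be tested. Lrp4, a co-receptor that binds the inhibitor sclerostin, had 74, 52 and 56 counts with LIPUS and 91, 85 and 86 counts with LPS alone. Kremen1, a receptor for Dickkopf inhibitors, had 492, 507 and 531 counts with LIPUS and 592, 635 and 607 counts with LPS alone. In CPM both had every LIPUS library below every LPS library, as did 4.63% of all genes tested. Neither passed the test, with log2 fold changes of -0.43 ± 0.17 and -0.17 ± 0.07 (adjusted p = 0.999 each, edgeR). The third gene, Adgra2, a co-receptor for Wnt7 ligands, was at -0.09 ± 0.34.

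Of 18 nuclear partners of beta-catenin 17 were tested, 6 positive and 11 negative, with a median of -0.02. The smallest p belonged to Ctbp1, a co-repressor gene (log2 fold change -0.10 ± 0.07), Ctnnbip1 and Cby1, inhibitors of beta-catenin (0.20 ± 0.15 and -0.17 ± 0.15), and the coactivator gene Bcl9 (-0.09 ± 0.09). Of 19 common target genes 10 were tested, 6 positive and 4 negative, with a median of 0.01, and Nkd1, Sp5, Sox9, Apcdd1, Tnfrsf19 and Mmp7 were silent. Jun had 151, 167 and 186 CPM with LIPUS and 148, 209 and 240 CPM with LPS alone (-0.25 ± 0.11, adjusted p = 0.999). Its log2 fold change was -0.42 without LPS library 1 and -0.09 without LPS library 3. With no filter on low counts Jun passed (adjusted p = 0.0164). Id2, Cd44 and Vegfa were at 0.18 ± 0.11, -0.07 ± 0.05 and 0.05 ± 0.06.

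Of 26 genes of the beta-catenin-independent branches 20 were tested, 7 positive and 13 negative, with a median of -0.02. Among them, the kinase gene Nlk was at 0.19 ± 0.10 and Camk2g, a calcium-dependent kinase gene, at -0.11 ± 0.06 (adjusted p = 0.999 each, edgeR).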

How the data were processed

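Libraries were poly(A)-selected and sequenced as paired ends, per the labels' protocols. The submitters' processing notes name bcl2fastq and mm10. How reads were aligned and counted, and on which annotation, is not given in the sources used here. The authors deposited raw read counts and TPM (per the file headers) for genes and transcripts. Transcript totals exceed gene totals by a factor of 3.32 to 3.49. The authors' deposited comparison tables hold log2 fold changes, unadjusted p-values and a normalised signal per library, which was not used.

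Counts were tested in R 4.3.3 with edgeR 4.0.16 (quasi-likelihood test, TMM scaling, filterByExpr with a minimum count of 10, two-sided, Benjamini-Hochberg adjustment over all 12571 genes or 52257 transcripts, threshold 0.05), LPS with LIPUS over LPS. The filter removed 8209 genes with counts, and 18309 had none. CPM is relative to TMM-scaled library size. The test was tested on simulated data. Genes below the filter were compared by summed counts, with exact 95% intervals, and by exact permutation. The median SE of a log2 fold change was 0.09. Alternatives were DESeq2 1.42.0, its size factors, other filters, a block for the replicate number, and fits without each library in turn. From each list the 4 genes with the smallest p were named, with Ctnnb1, Axin1 and Axin2. Of the beta-catenin-independent list, 2 of these genes are not reported here. Start-site sequences are from RefSeq on GRCm38.p6, the assembly also called mm10, one per gene, nearest the deposited start. The genes, lists and rules were chosen with earlier results of these data known.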

Additional observations from a re-analysis of the deposited data

How the results depend on the processing

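No Wnt gene passed the test under any alternative run (0 of 15 to 39 tested), and no Wnt transcript did. Over all genes the count was 31 with no filter on low counts, 5 with the replicate number as a block and 0 to 6 leaving out 1 library at a time. Over all transcripts it was 11 with the replicate block and 0 to 10 leaving out 1 library. Deviations from the group means gave no sign that the repeat numbers pair the libraries. Those of same-numbered libraries correlated at -0.001, -0.102 and 0.004, and those of differently numbered libraries at -0.083 to 0.086. With 3 libraries per group this cannot exclude a pairing. Small fold changes turned sign in some fits without 1 library, never past the threshold. Their log2 ranges were -0.075 to 0.060 for Porcn, -0.10 to 0.018 for Wls, -0.017 to 0.13 for Fzd5, -0.028 to 0.082 for Fzd7, -0.073 to 0.0081 for Lrp5, -0.069 to 0.051 for Znrf3, -0.10 to 0.026 for Dvl1, -0.16 to 0.029 for Bcl9, -0.43 to 0.12 for Adgra2 and -0.030 to 0.062 for Ctnnb1. The same fits gave -0.81 to -0.47 for Fzd2, -0.37 to -0.17 for Notum, 0.055 to 0.31 for Tcf7l2, 0.11 to 0.29 for Lgr4, -0.42 to -0.089 for Jun and 0.026 to 0.26 for Id2. For Wnt9a the log2 ratio of summed counts was -1.44 to -0.45 leaving out 1 library. This ratio turned sign for Fzd9 (-0.46 to 0.40) and for Rnf43 (-0.65 to 0.59). For Wnt2b it was 0.96 to 1.30, and without the filter edgeR gave an adjusted p of 0.899. With 1 CPM required in 3 libraries Fzd2 and Apc2 were not tested. Tcf7, at trace counts with 56 reads over all libraries, was also near the limit of the filter. It passed in the fits without LIPUS library 2, LIPUS library 3, LPS library 1 or LPS library 2. The low read numbers limit what the trace genes can show: with 42 reads for Wnt2b, the counting interval alone spans 1.09 to 4.38.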
